A study of Mus musculus with 37 samples.

Results

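Keratins are the intermediate filament proteins of epithelial cells. The deposited table listed 51 genes whose symbol is Krt followed by a number, with no hyphen and without the keratin-associated Krtap genes, out of 39017 genes in all. They comprised 28 genes of acidic type I and 23 of basic type II: 27 type I genes lie on chromosome 11, and Krt18, also type I, lies on chromosome 15 with all the type II genes (GENCODE M21, GRCm38). By role they were split into 4 simple ductal keratins (Krt7, Krt8, Krt18 and Krt19), 4 squamous keratins (Krt5, Krt14, Krt6a and Krt17), 3 other simple epithelial keratins, 15 other stratified epithelial keratins, 14 hair shaft keratins, 9 keratins of the hair inner root sheath and companion layer, and Krt222 and Krt42, which fell outside these lists.

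A type I and a type II keratin pair to form a filament, so the 2 types are used together, often with preferred but not fixed partners. Krt8 and Krt18 are the core pair of simple epithelia, and Krt19 and Krt7 are added in ducts, including those of the pancreas. Krt5 and Krt14 pair in the basal layer of stratified epithelia, Krt6a and Krt17 in skin appendages and in stressed or wounded epidermis, and a squamous keratin programme is known from some pancreatic carcinomas. Hair keratins are made in the shaft and sheath of the follicle.

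Bulk RNA was sequenced from 37 mouse tumours, each grown under the skin of a C57BL/6 mouse from a clone of pancreatic tumour cells and collected 3 weeks later, with no treatment. By the phenotype label, 15 tumours (7 clones) were T cell high, 4 (2 clones) intermediate and 15 (7 clones) low, and 3 carried no such label. All groups share the strain, the time and the absence of treatment, and the labels state neither the genotype of the tumour cells nor how the phenotype was measured. A clone is called by its part of a sample title (bulk_2669c4, for example), without bulk_ in the plots. Tumours of a clone share the implanted cells, so phenotypes were compared over clones, and nothing in the labels says whether tumours of a clone came from separate implantations, so p-values over tumours measure only the spread between these samples. Each tumour is a mixture of implanted cells and cells of the host, and in such bulk RNA fewer cells of a type and less RNA per cell cannot be told apart.

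The 34 libraries with a phenotype held 7.39 to 102.33 M counts (median 31.8 M). In 17 of them liver and heart transcripts were abundant, with 257.7 to 5922 CPM (counts scaled to the total of the library) of Myh6, Myh7, Cps1 and Serpina3k summed, and in the other 17 the sum was at most 0.539 CPM. Both classes held all 3 phenotypes (7 high, 2 intermediate and 8 low libraries with these transcripts, and 8 high, 2 intermediate and 7 low without). Of the libraries with the transcripts, 16 of the 17 were tumours numbered 1 in the titles, and none without them was, so the class and the tumour number can hardly be told apart. Among the libraries with the transcripts, 7 from 7 different clones were nearly alike: each differed from another by a chi-squared of 3.25 to 36.3 per gene, while the closest tumours of a single clone differed by 48.5. They were bulk_2838c3_no1, bulk_6419c5_no1, bulk_6499c4_no1, bulk_6555c3_no1, bulk_6556c4_no1, bulk_6620c1_no1 and bulk_6694c2_no1. Clone levels below therefore come from libraries without liver and heart transcripts (7 high, 2 intermediate and 6 low clones, and low clone bulk_6422c1 has none). Counts of keratins called between clones and between classes of library are given with and without the alike ones. Levels, shares, orders, marker sums and list counts that use the other libraries include the alike ones, as do the relations between keratins there.

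The bases just upstream of the start are shown for a pair of partners whose levels moved together over the clones (Krt8 and Krt18), for a pair whose levels did not (Krt5 and Krt14), and for Krt20, which differed 10.6-fold between clones. They are RefSeq sequences (GRCm38.p6), 5′ to 3′ on the strand of the gene, limited to bases that no GENCODE exon of the gene covers; capitals mark matches to the letters TATAA or ATAAA on either strand. Krt8 is at chr15:102004483-102004592 (minus strand, 110 bases), Krt18 at chr15:102027966-102028179 (plus strand, 214 bases), Krt5 at chr15:101712906-101713155, Krt14 at chr11:100206031-100206280 and Krt20 at chr11:99438154-99438403 (minus strand, 250 bases each). The Krt14 stretch lies inside the longer gene model of GENCODE, in none of its exons. The RefSeq promoters of Krt8 and Krt18 also hold bases that such exons cover, and these are left out. That of Krt18 runs to 102028215 and holds a TATAA match at -19, outside the bases shown.
Krt8: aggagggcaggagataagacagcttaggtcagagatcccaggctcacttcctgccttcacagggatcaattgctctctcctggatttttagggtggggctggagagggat
Krt18: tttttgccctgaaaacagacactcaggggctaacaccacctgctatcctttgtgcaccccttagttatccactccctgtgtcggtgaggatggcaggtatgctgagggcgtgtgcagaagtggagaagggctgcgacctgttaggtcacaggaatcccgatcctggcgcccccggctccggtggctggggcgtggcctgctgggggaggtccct
Krt5: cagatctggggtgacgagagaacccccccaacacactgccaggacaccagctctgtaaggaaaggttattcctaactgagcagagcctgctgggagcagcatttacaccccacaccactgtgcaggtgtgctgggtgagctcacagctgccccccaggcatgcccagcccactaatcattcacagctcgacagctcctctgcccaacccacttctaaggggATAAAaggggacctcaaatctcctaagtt
Krt14: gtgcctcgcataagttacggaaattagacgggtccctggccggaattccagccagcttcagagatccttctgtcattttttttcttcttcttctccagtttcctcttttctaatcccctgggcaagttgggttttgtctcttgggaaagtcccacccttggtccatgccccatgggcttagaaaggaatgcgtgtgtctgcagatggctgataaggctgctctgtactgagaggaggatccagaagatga
Krt20: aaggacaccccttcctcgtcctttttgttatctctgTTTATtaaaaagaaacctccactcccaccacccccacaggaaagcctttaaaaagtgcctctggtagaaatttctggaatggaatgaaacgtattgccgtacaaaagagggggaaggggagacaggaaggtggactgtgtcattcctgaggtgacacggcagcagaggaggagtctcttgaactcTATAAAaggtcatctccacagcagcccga

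RefSeq promoters were found for 35 of the 51 keratins (36 promoters), and Krt19, Krt17 and Krt6a were not among them. In the 250 bases before the start, searched on both strands, TATAA was present in 24 of the 36 keratin promoters (66.7%), against 22.8% of 32851 promoters in all. ATAAA, which can overlap TATAA, was present in 30 of 36 (83.3%), against 37.3% of all promoters. The letters GGGCGG, a GC box, were present in 2 of 36 keratin promoters, against 32.7% of all, and the promoter of Krt7 held 4 of them. The Krt7 promoter (chr15:101412153-101412402) lies inside the GENCODE gene. None of its GC boxes, the first at -141, lies in the 82 bases that no exon of the gene covers. CCAAT was present in 14 of 36, against 33.8% of all promoters, and the AP-1 letters TGANTCA in 2 of 36, against 6.75%. These matches describe letters only.

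The tumours carried a simple ductal keratin profile. Krt7, Krt8, Krt18 and Krt19 made up 88.6 to 97.0% of the keratin counts of each of the 34 libraries, and all keratins together made up 0.313 to 0.985% of all counts. Of the 51 keratins, 13 averaged at least 1 CPM, 26 reached 1 CPM in no library, and Krt9 and Krt32 had no count among 1222 M, which allows up to 0.00246 CPM (3 counts). Per kilobase of transcript, the mean level was 1241 ± 320.7 RPKM for Krt18, 1147 ± 289.4 RPKM for Krt8, 750.4 ± 262.6 RPKM for Krt19 and 247.1 ± 110 RPKM for Krt7 (SD, n = 34 libraries). Krt20, a keratin of intestinal and urothelial surface cells, had 131.9 ± 89.0 RPKM, Krt23 46.1 ± 19.1 RPKM and Krt14 7.61 ± 8.80 RPKM. Within libraries Krt18 exceeded Krt8 in only 22 of 34, so these neighbours in the order did not separate. The 7 nearly alike libraries were all among the 22, with a ratio of 1.123 to 1.325. Krt8 exceeded Krt19 in 33 of 34, Krt19 exceeded Krt7 in 34 of 34 and Krt7 exceeded Krt20 in 30 of 34.

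**Figure D1:**
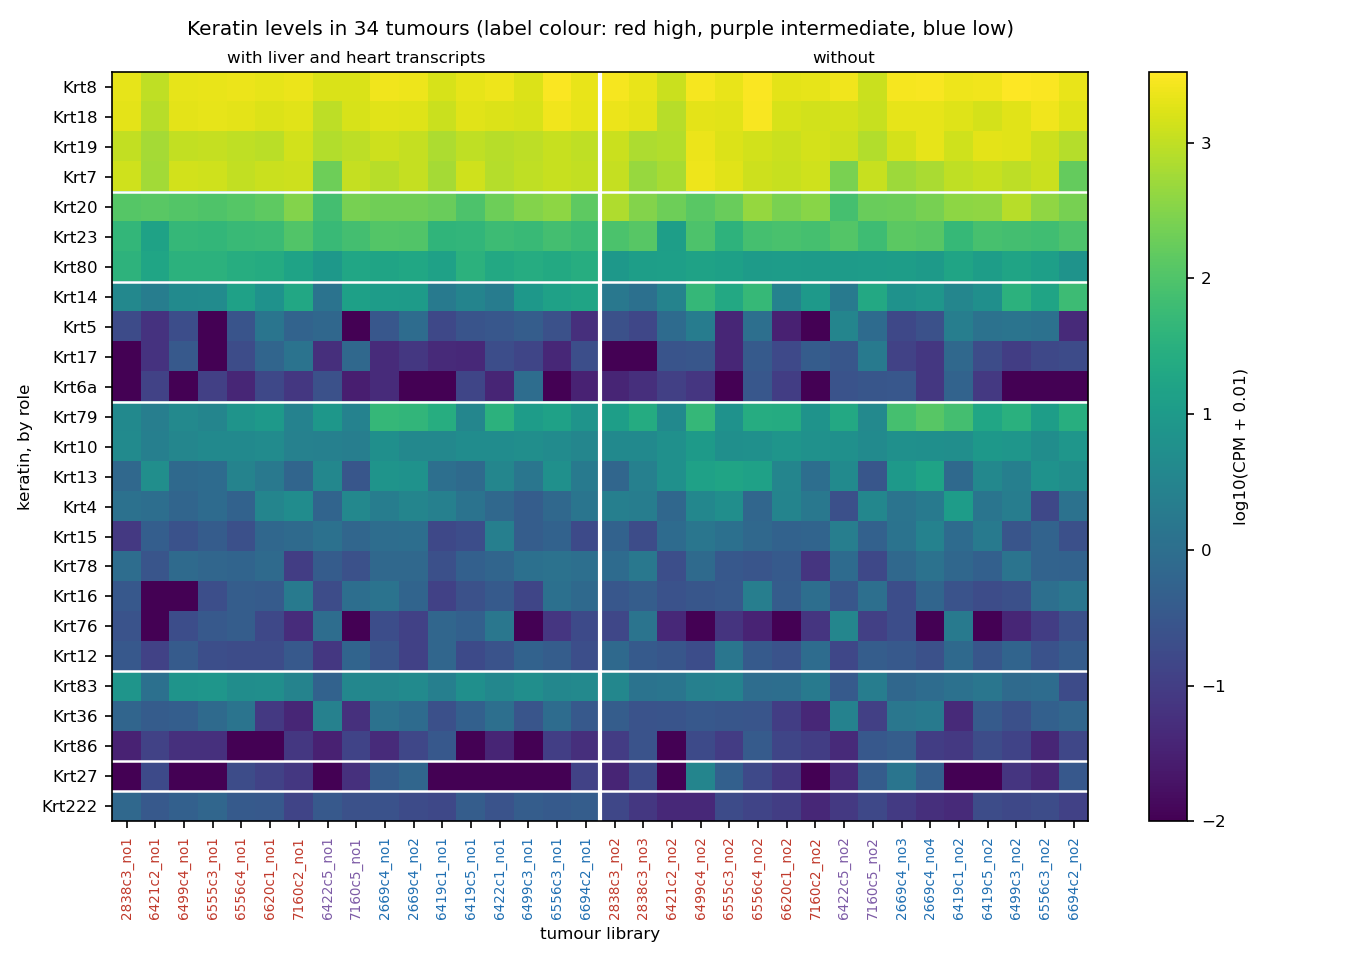
Levels of the 25 named keratins (rows, grouped by role) in each of the 34 libraries with a phenotype (columns, those with liver and heart transcripts left of those without), as log10(CPM + 0.01) by colour, with label colours for the phenotype. The ductal rows are bright in every library, and Krt7 is dimmer in bulk_6422c5 and in the bulk_6694c2 library without the transcripts (161.1 CPM).

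Epithelial markers were present in every library, and mesenchymal transcripts and some of the listed epidermal markers were present too. Epcam, a surface marker of simple epithelia, ranged from 11.4 to 902.7 CPM and Cdh1 (E-cadherin) from 431 to 1179 CPM, while the mesenchymal filament gene Vim ranged from 1241 to 3843 CPM. Trp63, the factor that defines squamous basal cells, was at 0.02 to 1.09 CPM. The epidermal markers (12 genes, Krt1, Krt2 and Krt10 among them) summed to 19.99 to 112.1 CPM in libraries with liver and heart transcripts (median 62.3) and 12.6 to 103.3 CPM in those without (median 29.0). In each class only 4 of the 12 averaged at least 1 CPM. Krt1 was at most 0.270 CPM and Krt2 at most 0.114 CPM in any of the 34 libraries, and Flg was at 0 in the libraries with the transcripts. The sums therefore do not show that skin cells were present. The genes listed as hair follicle markers summed to 2.35 to 13.96 CPM with the transcripts and 1.39 to 10.45 CPM without. The part of skin or follicle cells of the host in the stratified and hair keratin levels below was not tested.

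Krt8 (ENSMUSG00000049382, chr15:101996698-102004482) and Krt18 (ENSMUSG00000023043, chr15:102028180-102032027) lie 23697 bases apart on opposite strands. Over the 15 clones Krt8 ranged from 1179 CPM in bulk_6421c2 to 3323 CPM in bulk_6499c3 (median 2487 CPM), and Krt18 from 854.9 CPM in bulk_6421c2 to 2976 CPM in bulk_6556c4 (median 1819 CPM). The clone bulk_6421c2 was low in each of its tumours, with Krt8 at 965.7 and 1179 CPM and Krt18 at 830.2 and 854.9 CPM. Krt8 in intermediate clone bulk_7160c5 (1184 CPM) was as low, and its Krt18 was 1165 CPM. In the other tumour of bulk_7160c5, with liver and heart transcripts, Krt8 was 1639 CPM and Krt18 1541 CPM.

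Krt19 (ENSMUSG00000020911, chr11:100140810-100148665), the type I keratin that marks ducts, ranged from 749.1 CPM in bulk_6421c2 to 2289 CPM in bulk_6499c4 (median 1346 CPM), a 3.06-fold range. Krt7 (ENSMUSG00000023039, chr15:101411043-101430313), its type II counterpart in ducts, was the ductal keratin with the widest range, 14.7-fold. It was lowest in low clone bulk_6694c2 (161.1 CPM) and intermediate clone bulk_6422c5 (258.3 CPM), and highest in high clones bulk_6499c4 (2368 CPM) and bulk_6555c3 (1918 CPM). Both tumours of bulk_6422c5 were low, at 205.8 and 258.3 CPM. The tumour of bulk_6694c2 among the nearly alike libraries did not share the low level, since those 7 held 1011 to 1361 CPM of Krt7. These clones were not low in every ductal keratin: bulk_6694c2 had 2175 CPM of Krt8 and bulk_6422c5 had 2504 CPM.

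**Figure D2:**
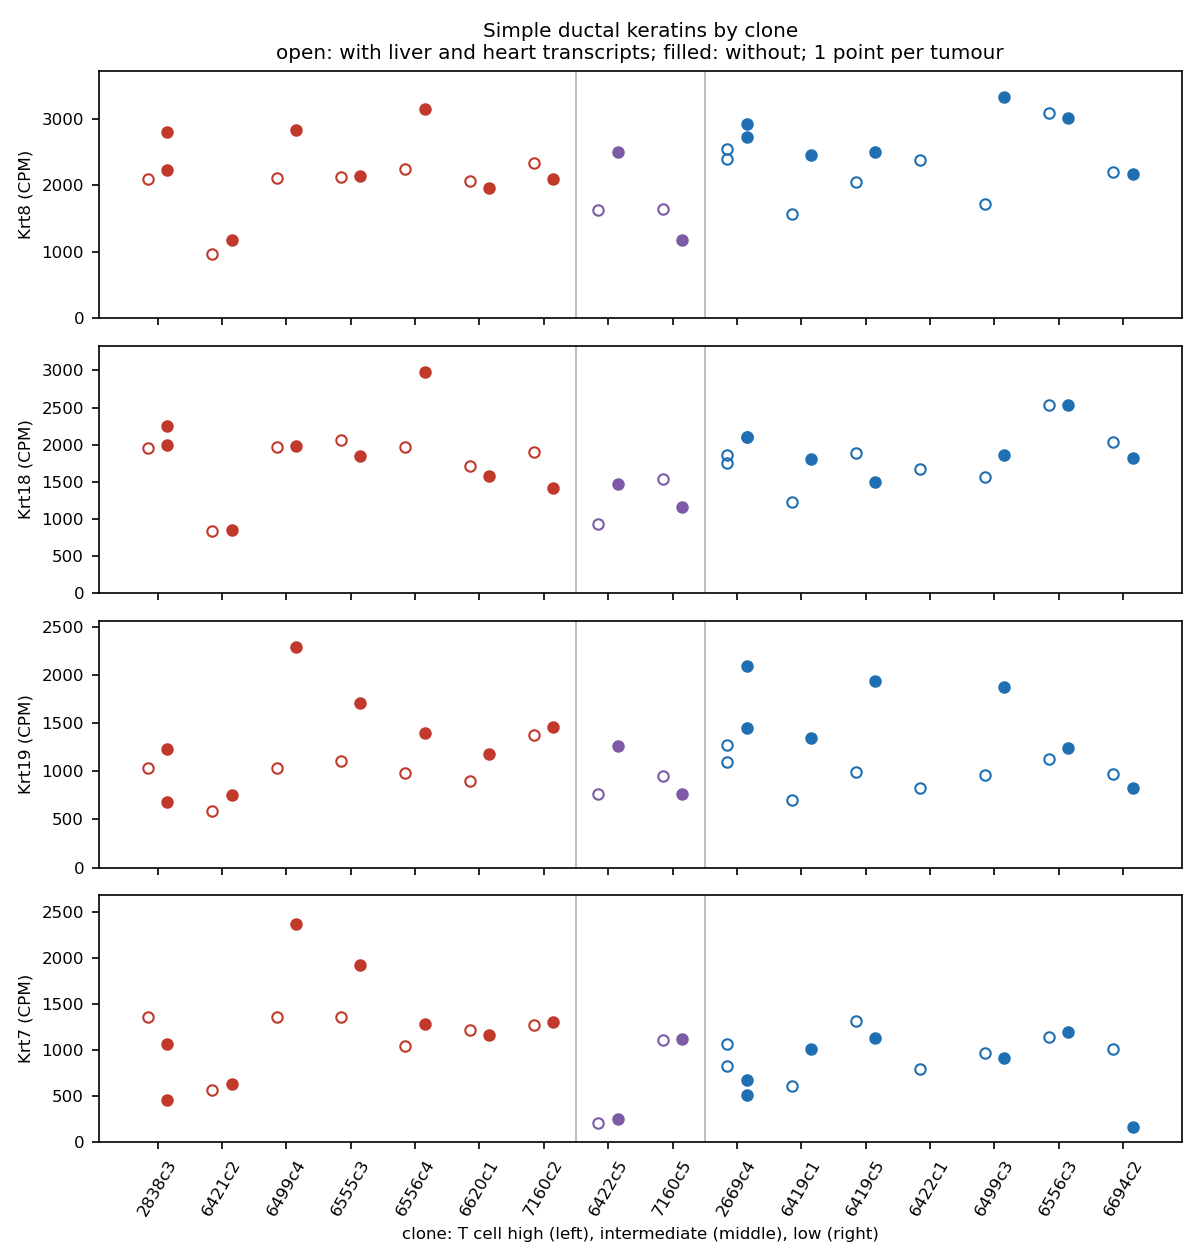
CPM (linear axes) of Krt8, Krt18, Krt19 and Krt7 by clone, 1 point per tumour, with high, intermediate and low clones from left to right. Open points are libraries with liver and heart transcripts and filled points those without, and both points of bulk_6422c5 lie low for Krt7 (205.8 and 258.3 CPM).

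Squamous keratins were sparse next to the ductal ones, and Krt14 was the only one of the 4 that averaged at least 1 CPM. Krt14 (ENSMUSG00000045545, chr11:100203162-100207548), the basal type I keratin, ranged from 1.32 CPM in bulk_2838c3 to 60.9 CPM in bulk_6694c2 over the 15 clones (median 9.48 CPM), a 46.3-fold range. Levels near 50 CPM were seen in bulk_6556c4 (49.9 CPM) and bulk_6499c4 (48.5 CPM). These levels and that of bulk_6694c2 are each from 1 tumour. The other tumours of bulk_6556c4, bulk_6499c4 and bulk_6694c2, all among the nearly alike libraries, held 14.8, 4.35 and 16.6 CPM of Krt14. Krt5 (ENSMUSG00000061527, chr15:101707070-101712898), the partner of Krt14, was far lower, with 3.18 CPM in bulk_6422c5 as its highest clone, a clone where Krt14 was 1.90 CPM. In bulk_6694c2, where Krt14 was highest, Krt5 was 0.0350 CPM.

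Krt17 (ENSMUSG00000035557, chr11:100256217-100261029), a stress and appendage keratin, was highest in bulk_7160c5 (0.713 CPM in the tumour with liver and heart transcripts, 1.91 CPM without). It was 1.25 and 0.403 CPM in the tumours of bulk_7160c2, with and without them. Krt6a (ENSMUSG00000058354, chr15:101689910-101694307), its type II counterpart, was at most 0.574 CPM in any clone without liver and heart transcripts, in bulk_6419c1, where Krt17 (0.718 CPM), Krt4 (11.3 CPM) and Krt76 (1.83 CPM) were also high. That library held the highest liver marker sum of those without the 4 liver and heart genes, 372 CPM, and its part in these levels was not tested. The highest Krt6a level of the 34 libraries was 0.947 CPM, in the bulk_6499c3 tumour with the transcripts, while the other tumour of that clone had no Krt6a count. Krt6a was too low for the filter of the fit over tumours and has no test there.

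**Figure D3:**
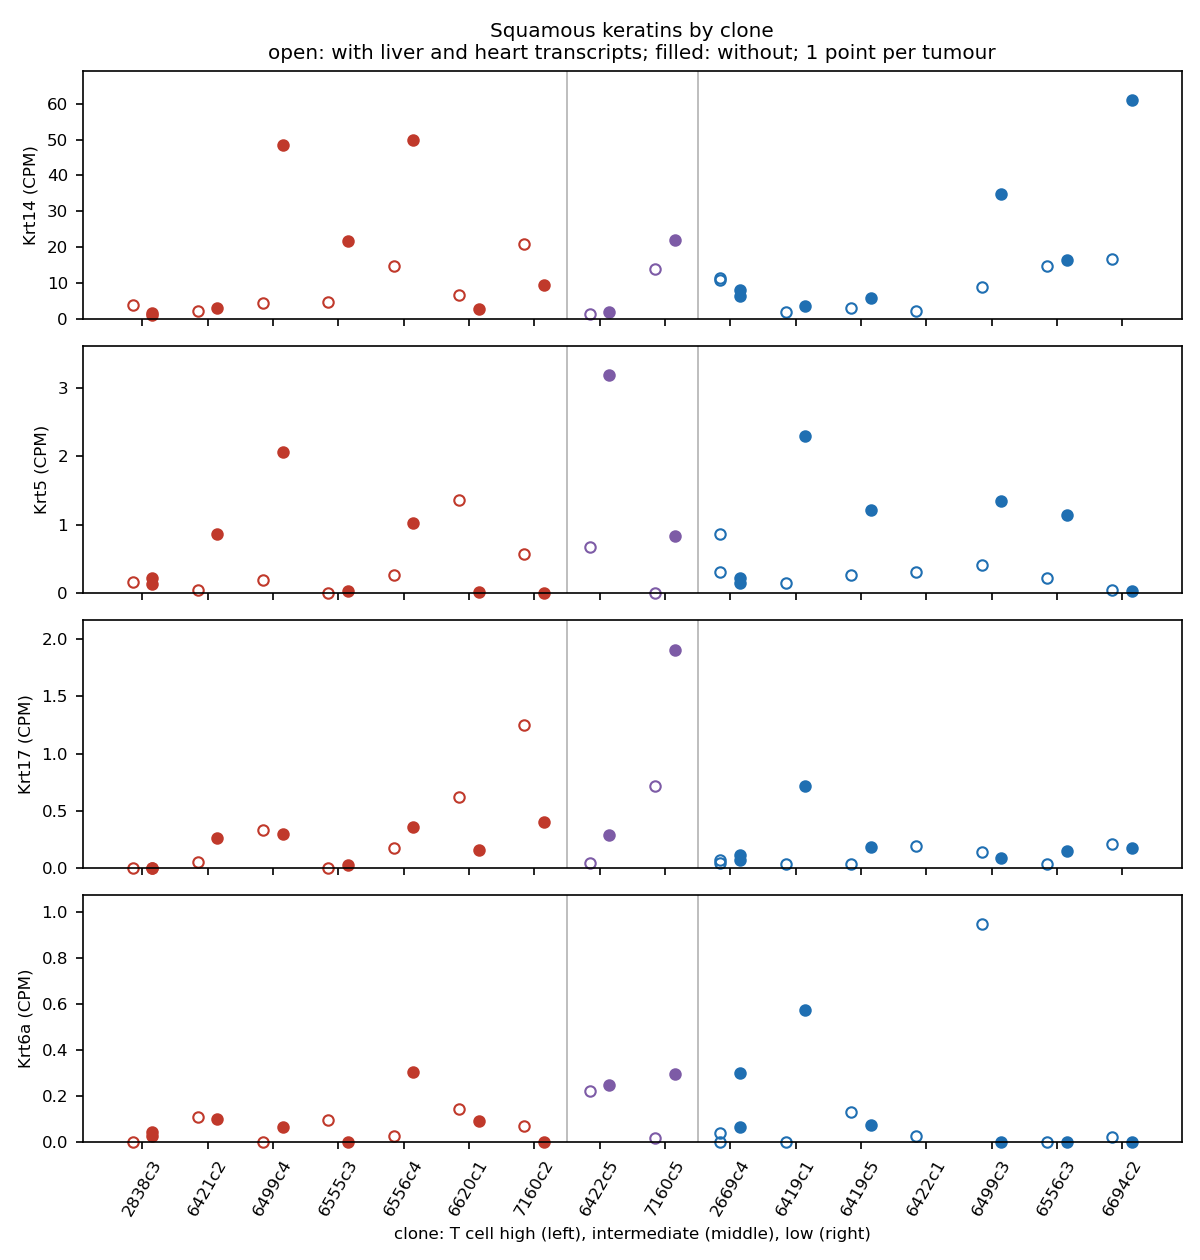
CPM (linear axes) of Krt14, Krt5, Krt17 and Krt6a by clone, 1 point per tumour, with high, intermediate and low clones from left to right. Open points are libraries with liver and heart transcripts and filled points those without; Krt14 reaches 60.9 CPM and Krt5 no more than 3.18 CPM.

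The other simple keratins were led by Krt20 (ENSMUSG00000035775, chr11:99428403-99438150), whose promoter bases are shown above. It ranged from 79.9 CPM in bulk_6422c5 to 848.2 CPM in bulk_6499c3. Krt23, a type I keratin of simple epithelia, was 15.2 and 12.5 CPM in the tumours of bulk_6421c2 (with and without liver and heart transcripts), against a clone median of 80.1 CPM. Krt80, a type II keratin, varied least of the 3, 2.42-fold over clones.

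Among stratified keratins, Krt79 (ENSMUSG00000061397, chr15:101929332-101940324), a keratin of the follicle opening in mouse skin, was the highest. It reached 106.7 CPM in bulk_2669c4, whose 4 tumours held 46.6 and 43.0 CPM with liver and heart transcripts and 78.0 and 123.9 CPM without, and it was lowest in bulk_7160c5 (4.02 CPM). Krt13 and Krt4, the pair of oesophageal and oral lining, ranged from 0.298 to 17.2 CPM and from 0.150 to 11.3 CPM over clones. They were highest in different clones, Krt13 in bulk_6555c3 and Krt4 in bulk_6419c1. Krt10, of the suprabasal epidermis, varied 2.41-fold. Krt76, an oral keratin, was 0.941 and 3.40 CPM in the tumours of bulk_6422c5 and had a clone median of 0.0620 CPM.

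Hair keratins were sparse, with Krt83 the only one that averaged at least 1 CPM (2.86 CPM). The hair shaft keratins summed to 2.09 to 9.21 CPM in libraries with liver and heart transcripts and 1.44 to 4.91 CPM in those without, and the sheath keratins to at most 4.77 CPM. Krt36 (ENSMUSG00000020916, chr11:100102007-100105626), a type I hair keratin, was 2.60 and 2.86 CPM in the tumours of bulk_6422c5, and in the tumours of bulk_7160c2 it was 0.0296 and 0.0310 CPM. Outside the naming rule and chosen after their values were seen, the sheath keratins Krt25, Krt71 and Krt73 were highest together in 2 libraries of different clones. In bulk_6620c1_no1 they were 1.17, 1.98 and 0.881 CPM, and in bulk_7160c5_no2 they were 0.942, 0.521 and 0.843 CPM, while the next highest library held at most 0.196 CPM of any of them. Krt27, another sheath keratin, was highest in a further library, bulk_6499c4_no2 (3.23 CPM).

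The hair cortex gene Krt83 (ENSMUSG00000047641, chr15:101431038-101438804, named Krt87 in GENCODE M21) lies 724 bases beyond the end of Krt7 on the opposite strand, and whether the counting used strand is not stated in the labels. Krt83 was lowest in bulk_6694c2 (0.175 CPM) and bulk_6422c5 (0.358 CPM), the clones lowest in Krt7. Per clone, Krt83 had 1.93 to 5.76 counts per 1000 Krt7 counts with liver and heart transcripts (median 4.23), against 0.72 to 3.16 without them (median 1.27), so the ranges overlapped. Whether reads of Krt7 were counted under Krt83 was not tested.

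Keratins differed between clones in 16 of the 25 that passed the filter on low counts (64%), and 35.1% of all genes tested did (6534 of 18593; edgeR quasi-likelihood test over 34 tumours with the class of library as a term, Benjamini-Hochberg adjusted p under 0.05). The other 26 keratins were too low to test. Called were 3 of 4 ductal, 2 of 3 tested squamous, 2 of 3 other simple, 7 of 9 tested stratified, 1 of 4 tested hair shaft and the 1 tested sheath keratin. The smallest adjusted p belonged to Krt79 (2.95e-05) and Krt36 (5.50e-05), followed by Krt23 (0.00147), Krt17 (0.00273), Krt14 (0.00309) and Krt13 (0.00461), by the same edgeR test. Among ductal keratins it was 0.00867 for Krt18, 0.0153 for Krt8 and 0.0339 for Krt7. Krt19 (0.110), Krt83 (0.0832) and Krt12 (0.0699) did not pass by edgeR, while DESeq2 gave them adjusted p of 0.0258, 0.0047 and 0.0272. Krt5 (0.411 by edgeR), Krt10 (0.285) and Krt80 (0.620) passed by neither.

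These calls rest on the spread between tumours of a clone, and for most clones those are 1 library with and 1 without liver and heart transcripts. With only libraries without the transcripts, where 2 clones have more than 1 tumour, 0 of 25 keratins were called by edgeR (12 at an unadjusted p under 0.05; smallest adjusted p 0.0679, for Krt14) and 0 of 18081 genes. With no class term 7 were called, and without the 7 nearly alike libraries 15. Krt8 was lost when either tumour of bulk_6421c2 was left out (adjusted p 0.0599 and 0.0611, edgeR), Krt20 in 4, Krt4 in 8 and Krt7 in 9 of the 34 fits that each left out a tumour. The adjusted p of Krt7 ranged from 0.000925, without bulk_6694c2_no1, to 0.117, without bulk_6422c5_no1. The calls of the other 12 held in all 34 such fits. Transcripts of other tissues were also called in this fit, class term included: 3 of 6 liver markers (Serpina3k 7.07e-06, Cps1 0.00219 and Fgb 0.0188, edgeR adjusted p) and 4 of 6 heart markers, led by Myh6 (3.27e-05), Myl2 (0.000895) and Nppa (0.00147). Serpina3k, Cps1 and Myh6 help define the class and were near 0 in every library without the transcripts. Most clones have 1 library with them, so these calls rest on single libraries and show no difference between clones. Of 6 skeletal muscle markers 0 were called. Their part in the keratin calls was not tested.

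Lists of genes that anchor keratin filaments or mark the same cells are read against the 35.1% of all genes that were called. Of 15 tested desmosome and anchoring genes 6 were called, led by the integrin Itga6, the desmoglein Dsg3 and the plakophilin Pkp1 (edgeR adjusted p 0.00106, 0.00107 and 0.00425). Of 14 simple epithelial identity genes 9 were called, led by the splicing factor Esrp1 (5.05e-05), Ovol2 (0.000163) and Epcam (0.000406), by edgeR. Of 10 other tested intermediate filament genes 7 were called, led by the neurofilament genes Nefh (0.00029) and Nefl (0.00033) and by Vim (0.00213). Of 9 tested squamous programme genes 3 were called (Sfn, Sox2 and Sprr1a). Of 5 tested epidermal markers Lor and Ivl were called, and of 4 tested hair follicle markers only Krt27. For the desmosome, squamous programme, epidermal and hair follicle lists the share called was near or under that of all genes.

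Some clone names share the number before the letter c, which the labels do not explain. Values without liver and heart transcripts are given side by side. In bulk_6499c4 (high) and bulk_6499c3 (low) Krt7 was 2368 and 917.4 CPM, Krt20 126 and 848.2 CPM, and Krt14 48.5 and 34.9 CPM. In bulk_6556c4 (high) and bulk_6556c3 (low) Krt18 was 2976 and 2539 CPM, Krt7 1280 and 1191 CPM, and Krt14 49.9 and 16.4 CPM. In bulk_7160c2 (high) and bulk_7160c5 (intermediate) Krt8 was 2102 and 1184 CPM, Krt19 1462 and 761.3 CPM, and Krt17 0.403 and 1.91 CPM. Each of these values is from 1 tumour. In the tumours of bulk_7160c2 and bulk_7160c5 with the transcripts, Krt8 was 2330 and 1639 CPM and Krt19 1380 and 947.4 CPM. Krt17 had the other order there, at 1.25 and 0.713 CPM. The other tumours of bulk_6499c4 and bulk_6556c4 are among the nearly alike libraries.

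Libraries with liver and heart transcripts differed from those without in 13 of 25 keratins within clones (52%; 3 higher and 10 lower), close to the 50.3% of all genes (9348 of 18593, 4680 higher; edgeR with clone as a term). The median log2 difference was -0.45 for the keratins tested and -0.02 for all genes. The share of keratins called is near the background and says nothing particular about keratins.

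Lower with the transcripts were Krt79, Krt20, Krt10, Krt13, Krt15, Krt12, Krt86, Krt23, Krt19 and Krt8. Leaving out 1 tumour ended the call of Krt86 in 21 of 31 fits (adjusted p up to 0.0929, edgeR), of Krt12 in 9 of 34 (up to 0.086) and of Krt8 in 3 of 34 (up to 0.0661). Krt79 was 2.26 to 46.6 CPM with them (median 7.14), against 4.02 to 123.9 CPM without (median 24.6). It was lower in 14 of the 15 clones that have both, by 1.55 on the log2 scale (log2 difference -1.55, SE 0.21, edgeR adjusted p 2.66e-06), although the ranges overlapped. Krt20 was 73.5 to 376.3 CPM with and 79.9 to 848.2 CPM without, also lower in 14 of 15 (-0.82, SE 0.20, adjusted p 0.00146, edgeR). Of the ductal keratins, Krt19 was lower in 12 of 15 clones (-0.51, SE 0.12, adjusted p 0.00105, edgeR) and Krt8 in 10 (-0.30, SE 0.09, adjusted p 0.0102). Krt18 (-0.14) and Krt7 (0.07) did not pass, nor did Krt14 (-0.60, adjusted p 0.126 by edgeR).

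Higher with the transcripts were Krt222, Krt83 and Krt80. Krt80 was 8.67 to 37.8 CPM with them (median 22.7), against 6.82 to 16.5 CPM without (median 11.7), and higher in 13 of 15 clones (0.88, SE 0.15, adjusted p 5.99e-05, edgeR). Krt83 was 0.538 to 7.82 CPM, against 0.175 to 3.62 CPM, higher in 14 of 15 (1.66, SE 0.25, adjusted p 1.40e-05, edgeR). Krt222, a keratin-like gene, was 0.128 to 0.728 CPM, against 0.0310 to 0.184 CPM, higher in 15 of 15 (1.79, SE 0.22, adjusted p 1.25e-06, edgeR).

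Genes of other lists also differed between the classes, and their counts are read against the 50.3% of all genes that were called. All 6 skeletal muscle markers were higher with liver and heart transcripts, led by Myh1 (7.70 on the log2 scale), as were 6 of 9 squamous programme genes (Sprr1a 1.39, Gjb2 3.10), with Sfn lower (-1.20). Of 15 desmosome genes 3 were higher and 5 lower (Jup -0.70, Evpl -0.95, Itgb4 -0.60), and of 14 simple epithelial genes 3 higher and 5 lower (Sox9 -1.08, Cldn3 3.11, Klf5 -0.49). For both lists the share called was near that of all genes. Of the genes listed as hair follicle markers, Crct1 (3.22) and Tchh (1.45) were higher. Membership of a list does not assign a transcript to that tissue. Ivl was higher (1.57) and Lor lower (-1.29), and of the other filament genes Des was higher (4.13) and Lmnb1 and Lmnb2 lower (-0.69 and -0.62). Their part in the keratin differences was not tested. Without the 7 nearly alike libraries 6 keratins were called, 3 higher (Krt222 1.52, Krt83 1.28, Krt80 0.41) and 3 lower (Krt79 -1.08, Krt10 -0.80, Krt19 -0.51). The difference of Krt20 was then -0.41 (adjusted p 0.137, edgeR) and that of Krt8 -0.31 (adjusted p 0.104).

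**Figure D4:**
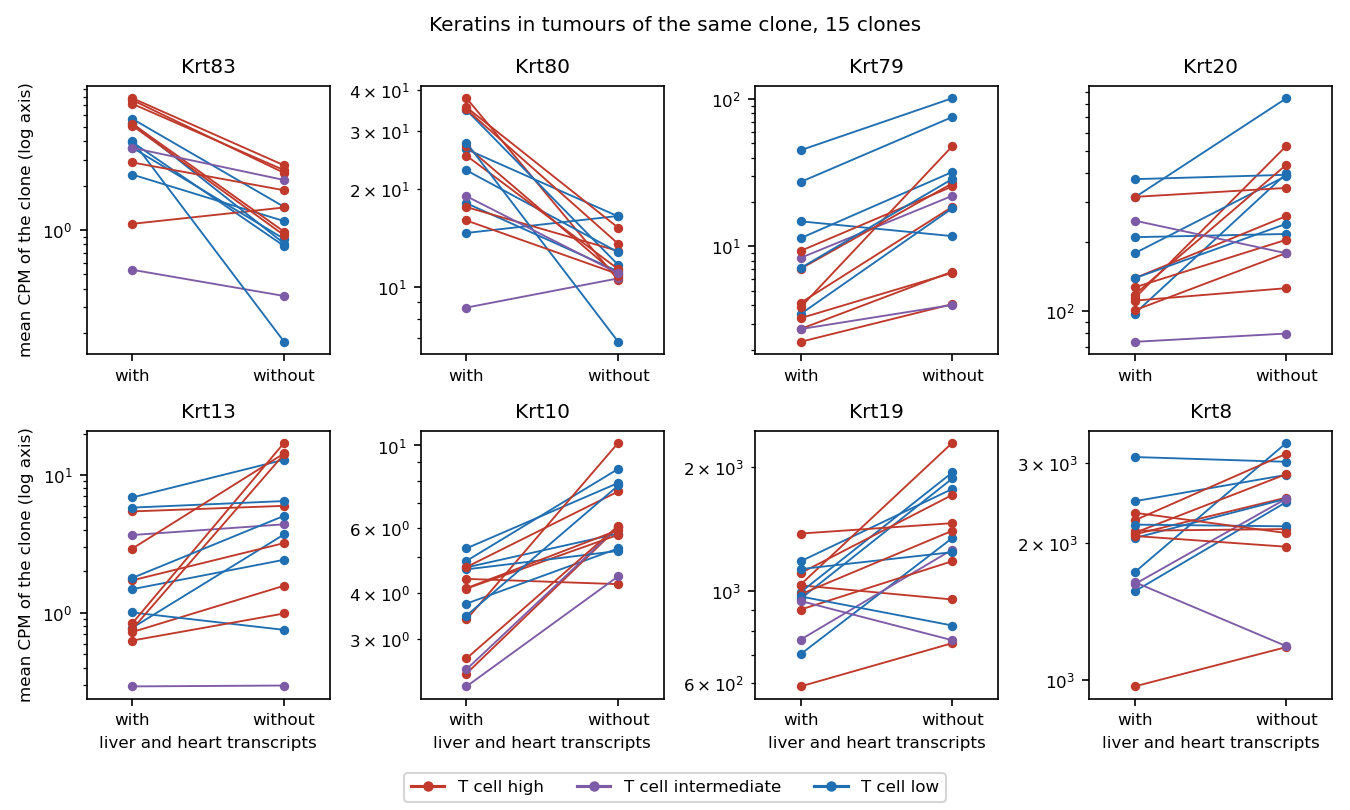
Mean CPM per clone (log axes) of 8 keratins that passed the test, in libraries with and without liver and heart transcripts; each line joins the 2 values of 1 of 15 clones and is coloured by phenotype. Krt83 and Krt80 lie higher with the transcripts in 14 and 13 clones, and the other 6 lie lower with them in 10 to 14.

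T cell high and low clones were compared on libraries without liver and heart transcripts summed per clone (7 high, 6 low), and no keratin passed. Krt8 averaged 2265 ± 640.7 CPM in high clones and 2721 ± 419.8 CPM in low clones, Krt18 1821 ± 659.1 and 1937 ± 352.4 CPM, and Krt19 1389 ± 513.8 and 1514 ± 447.4 CPM (SD, n = 7 high and 6 low clones). Krt7 was 628.2 to 2368 CPM in high clones (median 1280), against 161.1 to 1191 CPM in low clones (median 962.7). For each of the 25 tested keratins the ranges of high and low clones overlapped, and 0.134% of 17905 genes had ranges apart. The log2 differences were 0.68 (SE 0.43) for Krt7, -0.27 (0.23) for Krt8, -0.10 (0.24) for Krt18 and -0.13 (0.26) for Krt19.

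Krt79 was 4.07 to 47.8 CPM in high clones (median 19.1) and 11.7 to 106.7 CPM in low clones (median 30.3), a log2 difference of -1.22 (SE 0.64, adjusted p 0.796, edgeR). Krt14 was 1.32 to 49.9 CPM in high clones (median 9.48) and 3.45 to 60.9 CPM in low clones (median 11.9), a difference of -0.16 (SE 0.89). The SE for Krt5 was 0.99 (difference -0.79), for Krt17 0.79 (-0.11) and for Krt6a 0.99 (-0.59), so that differences of this size could not be resolved with these clones. By edgeR 0 of 25 keratins and 0% of 17905 genes were called, and before adjustment 1 keratin (Krt83, 1.06, SE 0.45, unadjusted p 0.0316) and 1168 genes were under 0.05. DESeq2 called 0 keratins and 39 genes, with 2 keratins at an unadjusted p under 0.05. Of the 25 keratins 8 had a positive difference, with a median of -0.13 (-0.003 for all genes). Over all libraries 0 of 31 tested keratins were called. None of the anchoring, identity, squamous programme, epidermal or other filament genes was called either: by unadjusted p the first were Itga6 (-0.48), Esrp1 (3.76), Serpinb5 (0.74), Lor (1.22) and Lmnb1 (-0.49).

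The 2 intermediate clones had unlike levels of Krt7 and Krt14. In bulk_6422c5 and bulk_7160c5 Krt8 was 2504 and 1184 CPM, Krt7 258.3 and 1116 CPM, and Krt14 1.90 and 21.9 CPM, each from 1 tumour. In their other tumours, with liver and heart transcripts, Krt7 was 205.8 and 1112 CPM and Krt14 1.23 and 13.9 CPM. Krt8 was alike there, at 1622 and 1639 CPM. Against low clones, 0 of 25 keratins and 0% of genes were called by edgeR (3 keratins and 1123 genes with a p under 0.05 before adjustment), and DESeq2 called 0 keratins and 23 genes. Krt20 was 79.9 and 178.8 CPM in intermediate clones, below all 6 low clones (224 to 848.2 CPM), with a log2 difference of -1.68 (SE 0.59, adjusted p 0.633, edgeR). Krt18 (1474 and 1165 CPM) also lay below all low clones (1496 to 2539 CPM). These 2 of 25 keratins had intermediate and low clones apart, and 5.03% of all genes did (900 of 17905), which is not a result about keratins. Krt17 had a difference of 2.25 (SE 0.99, adjusted p 0.781) and Krt35, a hair shaft keratin named after its value was seen, 4.92 (SE 1.71, adjusted p 0.633, edgeR), which turned to -3.14 without bulk_7160c5. With bulk_6422c5 left out the intermediate group is 1 tumour, and the sheath keratins Krt25 and Krt73 then passed the filter on low counts only through that tumour, where they were high, so their differences there are no evidence.

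No keratin passed the test of high against intermediate clones by edgeR (0 of 25 called, 3 at an unadjusted p under 0.05), and 0.00559% of genes were called (1 of 17905, and 706 with a p under 0.05 before adjustment). By DESeq2 the calls were 0 keratins and 15 genes. The 3 were Krt36 (-2.73, SE 0.95), Krt17 (-2.36) and Krt76 (-3.50). Without bulk_6422c5 the difference of Krt36 turned to 1.22 and that of Krt76 to 0.68, and leaving out each clone gave -3.13 to -0.52 for Krt17. High and intermediate clones were apart in 0 of 25 keratins and in 2.92% of all genes. Krt36 was 0.229 ± 0.119 CPM in high clones (SD, n = 7), and 2.86 and 0.0992 CPM in the 2 intermediate clones.

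Partners were compared over the 15 clones on log2 CPM, in 8 pairs, with two-sided permutation tests and Benjamini-Hochberg adjustment over the 8. Krt8 and Krt18, the partners whose upstream bases are shown above, varied together (r 0.85, permutation p 0.00012, adjusted p 0.00096; rho 0.76, permutation p 0.0014, adjusted p 0.0112). Without the 2 clones farthest from the median of Krt8, bulk_6421c2 and bulk_7160c5, r was 0.65. For Krt8 and Krt19 r was 0.70 (permutation p 0.0032, adjusted p 0.0128; rho 0.60, permutation p 0.01996, adjusted p 0.0798), and 0.38 without the 2 farthest clones, so that relation rests largely on them. Krt7 and Krt19 had r 0.51 (permutation p 0.0499, adjusted p 0.0998), and Krt18 and Krt19 r 0.43 (permutation p 0.112, adjusted p 0.179).

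Squamous partners gave other values. Krt5 and Krt14 had r -0.02 (permutation p 0.938; rho -0.02). Krt6a and Krt17 had r 0.61 (permutation p 0.0150, adjusted p 0.0401; rho 0.55, permutation p 0.0383, adjusted p 0.102), and 0.52 without 2 clones, but at levels under 2 CPM, and in libraries with liver and heart transcripts r was 0.02. Krt14 and Krt17 had r 0.16 (permutation p 0.566) and Krt19 and Krt14 r 0.25 (permutation p 0.358). Clones share library depth and the makeup of the tumours, and their part in these relations was not tested.

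**Figure D5:**
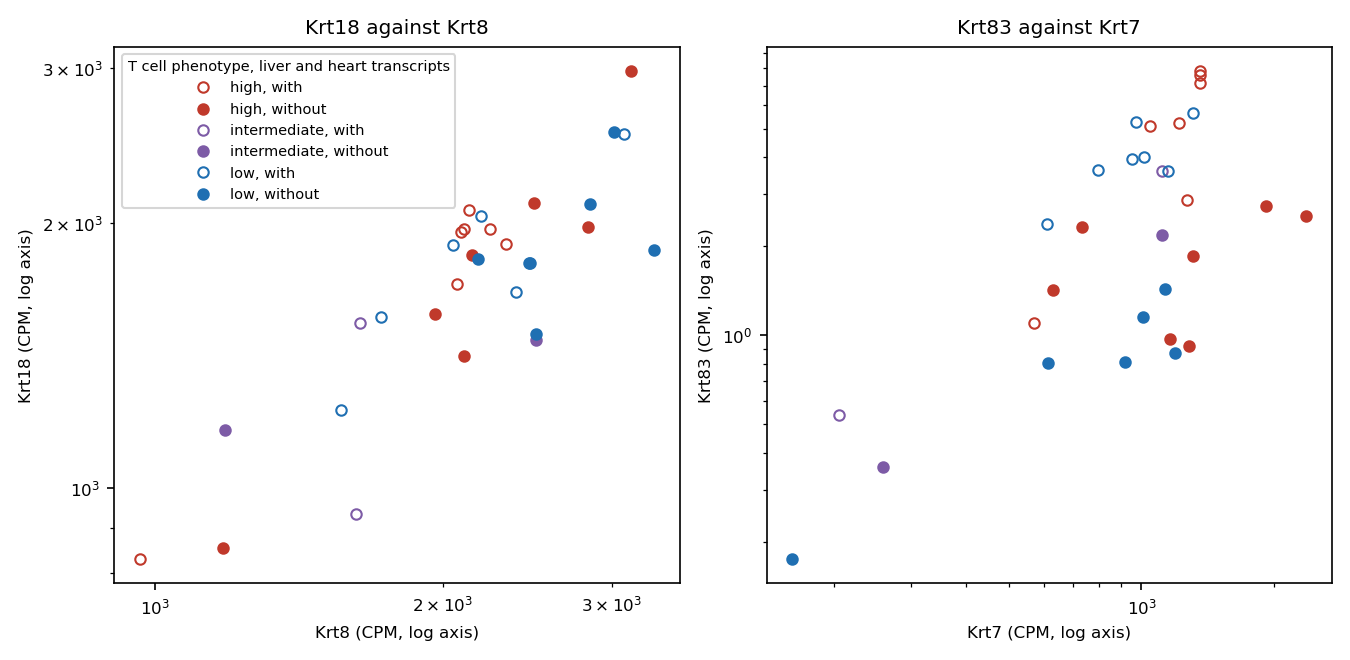
CPM per clone (log axes) of Krt18 against Krt8 and of Krt83 against Krt7, with open points for libraries with liver and heart transcripts, filled points for those without, and colours for the phenotype. Krt18 and Krt8 lie along a rising band (r 0.85 over the 15 clones without the transcripts), and most points with the transcripts lie above those without in Krt83; bulk_6421c2, with 1.10 CPM of Krt83 with them and 1.42 CPM without, does not.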

How the data were processed

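Total RNA of bulk tumours was the input (500 ng per library, per the labels' protocols). The submitters' processing notes name STAR, featureCounts and mm10 without versions. Annotation, strandedness and the handling of multiply matching reads were not given in the sources used here; keratins with near-identical copies (such as Krt6a and Krt6b) and the neighbouring strands of Krt7 and Krt83 are therefore uncertain. The authors deposited raw counts per gene for 37 libraries, judged from whole-number values with unequal totals. Coordinates are from GENCODE M21.

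CPM are of total counts; RPKM also divide by the principal transcript's length. Tests used edgeR 4.0.16 in R 4.3.3 (TMM scaling, default filter on low counts, two-sided quasi-likelihood test, Benjamini-Hochberg adjustment over all genes tested, threshold 0.05). SE of log2 differences are approximate. The 3 phenotypes were compared on counts summed per clone, clones and library classes (over 10 CPM of Myh6, Myh7, Cps1 and Serpina3k counts as with) on counts per tumour. Relations used a prior count of 2 and 100000 permutations. Alternatives included DESeq2 1.42.0, other scaling, filters and sets of libraries, and leaving out tumours or clones in turn. The scripts were tested on simulated counts. Python 3.11.15, numpy 2.4.6, scipy 1.17.1 and matplotlib 3.10.9 were used.

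Members, lists and tests were chosen with earlier results of these data known. Named are the 8 ductal and squamous keratins, every other keratin with a mean of at least 1 CPM or at least 5 CPM in any library, and every keratin called in a comparison on all its tumours or clones (25 in all; Krt25, Krt35, Krt71 and Krt73 are named outside this rule); from other lists, up to 3 called members or else the one with the smallest p. The 3 tumours without a phenotype entered no comparison.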

Additional observations from a re-analysis of the deposited data

Results flagged for a closer look

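In groups of clones without liver and heart transcripts, the highest clone stood apart from the others, by its gap to the next relative to the range of the group, in 10 of the 50 groups examined (25 keratins in high and in low clones). The rule is set to flag about 1 in 20 by chance. Whether that rate holds for these CPM values was not tested, and several flags share a library. No excess over chance is read from the count. Each value is from 1 tumour except those of bulk_2669c4 and bulk_2838c3, which sum 2.

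In low clones, 4 of these were bulk_6419c1: Krt4 at 11.3 CPM (next clone 2.13), Krt76 at 1.83 CPM (next 0.210), Krt17 at 0.718 CPM (next 0.184) and Krt6a at 0.574 CPM (next 0.155). Krt20 in low clone bulk_6499c3 was 848.2 CPM (next 398.4), and Krt36 in low clone bulk_2669c4 was 1.72 CPM (next 0.665).

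In high clones, bulk_6556c4 stood apart in Krt16, the type I partner of the Krt6 genes, at 2.33 CPM (next 0.960), and in Krt6a at 0.307 CPM (next 0.0992). Krt76 in bulk_2838c3 was 0.803 CPM (next 0.0620), and Krt27 in bulk_6499c4 was 3.23 CPM (next 0.486).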

How the results depend on the processing

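Keratin counts moved by setting. Between clones 7 keratins were called with no class term and 0 with only libraries without liver and heart transcripts, where few tumours share a clone by construction; leaving out each tumour gave 13 to 17. With versus without the transcripts 6 were called without the nearly alike libraries, and 10 to 15 when leaving out each tumour; the cause was not tested. Tumours of other phenotypes went together by the numbers in the titles. The median correlation of deviations was 0.378 within tumours numbered 1 or within later ones (lowest -0.524). Between tumours numbered 1 and later ones it was -0.382 (highest 0.706). The number can hardly be told apart from the class of library. With the number as a replicate block 16 keratins differed between clones. On counts per tumour with that block, where tumours of a clone wrongly count as replicates, 1 keratin differed between high and low (Krt79, -1.75, SE 0.40, edgeR adjusted p 0.0473) and 77 genes were called, against 0 keratins and 38 genes per tumour without the block. Leaving out each clone gave 0 for high versus low, 0 to 2 for intermediate versus low (Krt25 and Krt73, which passed the filter only through 1 tumour) and 0 for high versus intermediate. Relations past or short of the threshold in other settings were Krt7 with Krt19 (r 0.66 in libraries with the transcripts, 0.54 in all), Krt18 with Krt19 (0.83, 0.56), Krt19 with Krt14 (0.71, 0.55) and Krt6a with Krt17 (0.024, 0.28, and 0.51 with a prior count of 0.5). The libraries with the transcripts include the 7 nearly alike ones, which are not independent points, and r without these was not computed. Signs of uncalled high versus low differences turned for Krt17 (1.01 in all libraries, 1.88 in those with the transcripts, 0.89 without nearly alike ones, 0.84 per tumour, 0.89 with the replicate block), Krt14 (0.12 in all, 0.19 without alike ones), Krt19 (0.00041 with the transcripts, 0.11 without alike ones), Krt18 (0.055 without alike ones) and Krt5 (0.40 with the transcripts). Leaving out each clone gave -0.63 to 0.54 for Krt14, -0.33 to 0.65 for Krt17 and -0.28 to 0.027 for Krt18 (high versus low), -3.14 to 8.08 for Krt35 and -1.60 to 0.40 for Krt7 (intermediate versus low), and -3.71 to 1.22 for Krt36 and -5.82 to 0.68 for Krt76 (high versus intermediate). Of single-gene values in other settings 320 kept direction and side of the threshold, 40 lost it, 2 gained it and 11 reversed. Depth limits the sparse keratins: 26 of 51 reached 1 CPM in no library, and their values rest on few counts.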

Other observations

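The labels give 3 tumours no phenotype. In bulk_6883c1_no1, with liver and heart transcripts, Krt8 was 553.8 CPM, Krt18 643.5 CPM, Krt19 124.1 CPM and Krt7 34.6 CPM, each below the lowest of the 34 tumours with a phenotype. Vim was 5027 CPM there, above the 3843 CPM that was the highest of the 34. In bulk_6883c4_no1, also with the transcripts, Krt8 was 1625 CPM, Krt5 2.76 CPM and Krt6a 0.888 CPM. In bulk_7062c3_no2, without them, Krt8 was 2617 CPM and Krt14 38.0 CPM.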
